A study of Mus musculus with 6 samples.

Results

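Large peritoneal macrophages are the resident macrophages of the abdominal cavity, and the 9 genes described here (Gata6, Prg4, Icam2, Slpi, Alox15, Timd4, Selp, Garnl3 and Cd5l) are part of the program by which these cells are recognized. The members were taken by symbol from the gene TPM table, in which 9 of 9 were found among 56980 genes. TPM is a transcript abundance corrected for gene length and scaled so that every library has the same sum, so levels can be compared between genes, but it keeps no record of sequencing depth. The 9 genes were not chosen by their values in these libraries, although earlier results of the same data were known when they were chosen.

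The libraries hold poly(A) RNA of tumor-associated macrophages (TAMs) from tumors of ID8 cells, a mouse ovarian cancer line, grown for 2 months in the peritoneal cavity of female mice whose age is given as 6 to 8 weeks. There were 3 libraries from wild-type (WT) C57BL/6 mice and 3 from C5aR-/- mice on the same background, which lack the receptor for complement C5a in every cell and not in macrophages alone. The sort kept live cells that were CD45+, CD11b+, Ly6G- and F4/80+. The labels do not say how many mice gave a library or whether the libraries of a group came from separate mice, and the legends of the study speak of more mice per group than there are libraries here. The tests therefore measure the spread between these samples, which may be technical.

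As background, the transcription factor GATA6 is the master regulator of large peritoneal macrophages. Retinoic acid made by mesothelial and stromal cells of the peritoneum and omentum induces Gata6, and macrophages that lose it lose many genes particular to the peritoneal resident cell. Small peritoneal macrophages and macrophages that arise from blood monocytes lack most of this program and carry more MHC class II. GATA6 is not restricted to macrophages, since epithelial and mesothelial cells can transcribe it too.

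The C5ar1 gene checked the labels, with a TPM of 86.5, 37.3 and 16.2 in WT libraries 1, 2 and 3 against 0.38, 0.11 and 0.05 in the C5aR-/- libraries. The libraries held macrophage RNA in very different amounts. The summed TPM of 12 macrophage markers ran from 2683 to 9392 in WT and from 2671 to 9320 in C5aR-/- TAMs, with library 1 the highest and library 3 the lowest in both groups. Lyz2 was the most abundant of them, with 1408 to 5812 TPM in WT and 1151 to 4787 TPM in C5aR-/- TAMs, so the sum does not stand for each marker. Of the 12 differences between C5aR-/- and WT on log2(TPM + 1), 9 were positive and 3 negative, with a median of 0.47. Over all 14776 genes tested, 6570 were positive. Keratin and mesothelial transcripts were also present in all 6 libraries. In bulk RNA, fewer cells of a type and less RNA per cell cannot be told apart.

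Prg4, Icam2, Slpi, Alox15 and Timd4 were lower in C5aR-/- TAMs, by 2.76 to 14.5 times in mean TPM. Gata6 itself was 1.12 times higher in WT by mean and overlapped between the groups. How much of the Gata6 RNA came from macrophages was not tested, since epithelial and mesothelial cells can transcribe it too. All 9 members had negative differences between C5aR-/- and WT on log2(TPM + 1), with a median of -1.87 against -0.05 over the 14776 genes tested. Negative differences were found in 8206 of all tested genes. Of the members, 5 passed at an unadjusted p under 0.05 with a fold of at least 2 as lower, where 2.84% of all tested genes did, and 0 passed as higher, against 2.13% of all genes. After Benjamini-Hochberg adjustment over all genes, limma called 0 of the 9 members and 0 of 14776 genes (0%). Of all tested genes, 2133 had an unadjusted p under 0.05 at any fold, and the smallest adjusted p was 0.0666. In 4 members (Prg4, Icam2, Slpi and Timd4) every C5aR-/- library lay below every WT library, as in 12.5% of all genes. The count of 5 dropped to 3 without WT library 1, WT library 2 or C5aR-/- library 3, and without WT library 1 the members' median was -1.15, with -2.68 without WT library 3.

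**Figure D1:**
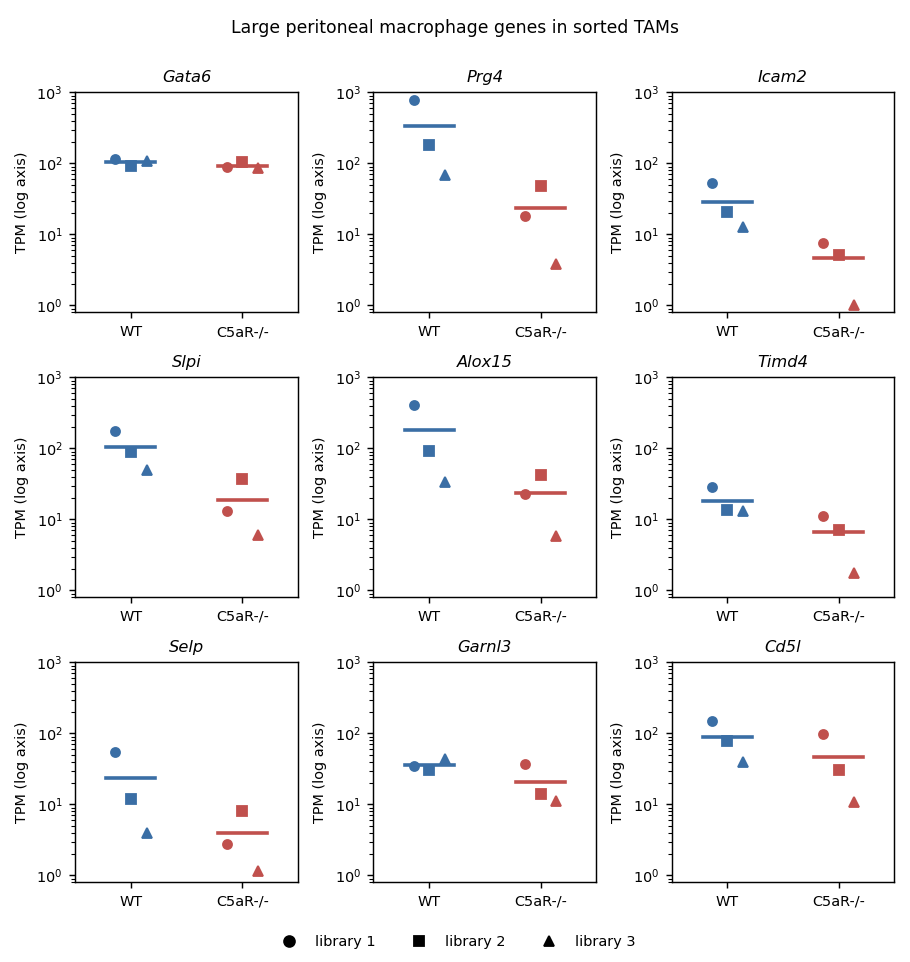
TPM of the 9 members on a log axis common to all panels, in WT and C5aR-/- TAMs, with circles, squares and triangles for libraries 1, 2 and 3 and a bar at the mean of each group. Gata6 sits near 100 TPM in all 6 libraries (86.8 to 116), whereas Prg4, Alox15 and Selp spread over more than 10 times among the WT libraries.

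Starting with the regulator, Gata6 (mouse gene ENSMUSG00000005836) had a TPM of 116, 91.1 and 107 in WT libraries 1, 2 and 3 and of 89.1, 104 and 86.8 in C5aR-/- libraries 1, 2 and 3. The groups overlapped, since C5aR-/- library 2 lay above WT library 2. The means were 105 ± 12.7 and 93.4 ± 9.55 TPM (SD, n = 3 each). The log2 difference was -0.16 (standard error 0.15, limma, unadjusted p = 0.299, adjusted p = 0.649), and the two-sided exact permutation p was 0.2. The highest WT library held 1.27 times the lowest, and the highest C5aR-/- library 1.20 times the lowest, the narrowest spread among the members. An opposite-strand transcript, 1010001N08Rik, overlaps the gene and had between 12.6 and 35.4 TPM. The libraries were made with strand marking, but whether strand was used in counting is not given in the sources used here.

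Among the secreted products, Prg4 encodes lubricin, a lubricating proteoglycan of joint and serosal surfaces. It lies at chr1:150449412-150466165 on the minus strand (GRCm38, the mm10 build named in the submitters' processing notes). Its TPM was 777, 182 and 68.3 in the WT libraries and 18.3, 48.7 and 3.87 in the C5aR-/- libraries. All WT libraries were above all C5aR-/- libraries, and the lowest WT library held 1.40 times the highest C5aR-/- library. The means of 342 ± 380 and 23.6 ± 22.9 TPM (SD, n = 3 each) stood 14.5 times apart. The log2 difference was -3.68 (standard error 1.09, limma, unadjusted p = 0.0126, adjusted p = 0.224), with an exact permutation p of 0.1, the smallest that 3 against 3 libraries allow. Unlike Gata6, Prg4 varied widely within each group, with 11.4 times between the highest and the lowest WT library and 12.6 times between those of C5aR-/- TAMs. Tpr, on the opposite strand, overlaps Prg4 and was at 103 to 132 TPM.

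Slpi, the secretory leukocyte protease inhibitor, blocks serine proteases such as neutrophil elastase. The gene is at chr2:164354070-164389095 on the minus strand. Its TPM was 174, 87.8 and 49.0 in WT and 13.1, 37.3 and 6.09 in C5aR-/- TAMs. The groups did not overlap, and C5aR-/- library 2 again was the highest of its group, as for Prg4. Mean TPM was 104 ± 64.2 against 18.8 ± 16.3 (SD, n = 3 each), 5.51 times higher in WT. The log2 difference was -2.56 (standard error 0.69, limma, unadjusted p = 0.00816, adjusted p = 0.195, exact permutation p = 0.1).

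Cd5l encodes a secreted scavenger protein of tissue macrophages, also called AIM, and lies at chr3:87357881-87371073 on the plus strand. It had 151, 79.4 and 38.9 TPM in the WT libraries and 99.4, 31.0 and 10.6 TPM in the C5aR-/- libraries. The groups overlapped, and in both of them the order of the libraries was 1, 2, 3, the order of the macrophage markers. The means were 89.8 ± 56.8 and 47.0 ± 46.5 TPM (SD, n = 3 each), with a log2 difference of -1.24 (standard error 0.82, limma, unadjusted p = 0.179, adjusted p = 0.539, exact permutation p = 0.4). The value was -2.03 without C5aR-/- library 1 and passed the unadjusted threshold there, and it was -0.76 without WT library 1 and -0.47 without C5aR-/- library 3.

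Of the surface proteins, Icam2 is an adhesion molecule that binds leukocyte integrins and serves as a flow cytometry marker (CD102) of large peritoneal macrophages. It lies at chr11:106377656-106388075 on the minus strand. Icam2 was at 52.5, 20.9 and 12.9 TPM in WT and at 7.70, 5.12 and 1.02 TPM in C5aR-/- TAMs. The lowest WT library held 1.68 times the highest C5aR-/- library, the widest gap among the members. Its means of 28.8 ± 20.9 and 4.61 ± 3.37 TPM (SD, n = 3 each) differed 6.23 times, and the log2 difference was -2.41 (standard error 0.68, limma, unadjusted p = 0.0098, adjusted p = 0.209, exact permutation p = 0.1). Icam2 is also in a heat map that the study drew from this experiment, so its direction is not independent evidence.

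Timd4 encodes TIM-4, a receptor for phosphatidylserine with which resident macrophages take up apoptotic cells, at chr11:46810800-46844332 on the plus strand. The WT libraries had 28.4, 13.5 and 13.2 TPM, and the C5aR-/- libraries 11.03, 7.18 and 1.77 TPM. The groups did not overlap, but the gap was narrow, with 1.19 times between the lowest WT and the highest C5aR-/- library. The WT mean of 18.4 ± 8.69 TPM was 2.76 times the C5aR-/- mean of 6.66 ± 4.65 TPM (SD, n = 3 each), with a log2 difference of -1.49 (standard error 0.58, limma, unadjusted p = 0.038, adjusted p = 0.318, exact permutation p = 0.1). Leaving out WT library 1 (-1.15), WT library 2 (-1.65), WT library 3 (-1.67), C5aR-/- library 2 (-1.66) or C5aR-/- library 3 (-0.88) ended the unadjusted call, with p-values from 0.0522 to 0.123 (limma).

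Selp encodes P-selectin, best known as the rolling receptor that platelets and endothelium expose on activation and also part of the resident peritoneal program, at chr1:164115264-164150026 on the plus strand. It had 55.3, 11.8 and 3.99 TPM in WT and 2.75, 8.10 and 1.14 TPM in C5aR-/- TAMs. The groups overlapped, as C5aR-/- library 2 lay above WT library 3, and WT library 1 stood far above the rest. Mean TPM was 23.7 ± 27.6 and 3.997 ± 3.64 (SD, n = 3 each), with a log2 difference of -1.87 (standard error 0.93, limma, unadjusted p = 0.0856, adjusted p = 0.413, exact permutation p = 0.2). Without WT library 1 the value was -0.94, and without WT library 3 it was -2.68 and passed the unadjusted threshold.

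Of the intracellular proteins, Alox15 is the 12/15-lipoxygenase, which oxidizes polyunsaturated fatty acids and is abundant in resident peritoneal macrophages. It lies at chr11:70344152-70352031 on the minus strand. Its TPM was 411, 92.6 and 33.55 in the WT libraries and 22.5, 42.7 and 5.87 in the C5aR-/- libraries. The groups overlapped, because C5aR-/- library 2 lay above WT library 3. The means of 179 ± 203 and 23.7 ± 18.4 TPM (SD, n = 3 each) were 7.55 times apart, and the log2 difference was -2.52 (standard error 1.01, limma, unadjusted p = 0.043, adjusted p = 0.331, exact permutation p = 0.2). The unadjusted call was lost without WT library 1 (-1.57), WT library 2 (-2.64), C5aR-/- library 1 (-2.67) or C5aR-/- library 3 (-1.78).

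Garnl3 encodes a protein with a GTPase-activating domain for small G proteins, at chr2:32986224-33131654 on the minus strand. It had 34.8, 30.1 and 43.2 TPM in WT and 37.1, 14.02 and 11.1 TPM in C5aR-/- TAMs. The groups overlapped through C5aR-/- library 1, which lay among the WT libraries, while C5aR-/- libraries 2 and 3 lay below all of them. The means were 36.1 ± 6.64 and 20.7 ± 14.2 TPM (SD, n = 3 each), with a log2 difference of -0.94 (standard error 0.43, limma, unadjusted p = 0.0638, adjusted p = 0.375, exact permutation p = 0.3). Without C5aR-/- library 1 the value was -1.44 with an adjusted p of 0.0289 (limma, against 0.375 with all libraries and up to 0.999999 under the other alternatives), and without C5aR-/- library 3 it was -0.62.

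In WT TAMs the order of mean TPM was Prg4, Alox15, Gata6, Slpi, Cd5l, Garnl3, Icam2, Selp and Timd4, and in C5aR-/- TAMs it was Gata6, Cd5l, Alox15, Prg4, Garnl3, Slpi, Timd4, Icam2 and Selp. In both groups the ranges of any 2 neighbors in the order overlapped, so their places are not fixed beyond the spread. Gata6, the third by mean in WT, was thus the most abundant of the 9 in C5aR-/- TAMs, although C5aR-/- library 1 held more Cd5l than Gata6. The libraries themselves were ordered alike by most members. WT library 1 was the highest for 8 of 9 members, with Garnl3 the exception, and C5aR-/- library 3 was the lowest for 9 of 9.

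Leaving aside Gata6 and Garnl3, the other 7 members followed each other across libraries. Over their 21 pairs, Pearson's r of log2(TPM + 1) across the 6 libraries was between 0.69 and 0.99, and it was between 0.57 and 0.99 for the deviations from each group's mean. Over all 36 pairs of the 9 genes r went down to 0.35, and within groups to -0.09. The points of these correlations share libraries that differ in macrophage content, so they are given as a description.

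Because the levels of most of these genes followed each other, their promoter windows were read from RefSeq (GRCm38.p6, 250 bases before the start site to 50 bases past it). Windows were found for 5 of the members, as 6 windows since Garnl3 has a pair of start sites, and none was used here for Gata6, Prg4, Icam2 or Alox15. The words searched on both strands, which GATA factors can bind, were AGATAA itself, then TGATAA with its other opening base, then AGATAG with its other closing base and finally TGATAG with both changed. Shown are 3 windows with a match, in capitals, and the window of Selp, which follows the other members in level and has none.
Slpi (chr2:164356458-164356757, minus strand): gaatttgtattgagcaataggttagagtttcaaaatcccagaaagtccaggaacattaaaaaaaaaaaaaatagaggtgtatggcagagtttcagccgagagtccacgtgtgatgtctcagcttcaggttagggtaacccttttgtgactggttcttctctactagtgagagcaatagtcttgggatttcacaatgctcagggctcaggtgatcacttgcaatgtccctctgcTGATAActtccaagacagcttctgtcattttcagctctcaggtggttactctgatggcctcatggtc
Timd4 (chr11:46810549-46810848, plus strand): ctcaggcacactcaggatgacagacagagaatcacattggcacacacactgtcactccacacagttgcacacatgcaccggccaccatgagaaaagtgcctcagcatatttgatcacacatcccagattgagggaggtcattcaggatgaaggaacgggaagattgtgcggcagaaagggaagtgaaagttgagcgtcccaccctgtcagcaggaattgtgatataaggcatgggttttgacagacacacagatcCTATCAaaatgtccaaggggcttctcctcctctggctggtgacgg
Cd5l (chr3:87357631-87357930, plus strand): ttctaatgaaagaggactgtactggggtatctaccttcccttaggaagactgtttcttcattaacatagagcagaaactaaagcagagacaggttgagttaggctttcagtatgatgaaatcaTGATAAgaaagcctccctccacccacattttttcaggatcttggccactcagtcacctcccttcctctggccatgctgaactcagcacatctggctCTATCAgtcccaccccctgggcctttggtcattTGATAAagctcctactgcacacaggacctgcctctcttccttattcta
Selp (chr1:164115014-164115313, plus strand): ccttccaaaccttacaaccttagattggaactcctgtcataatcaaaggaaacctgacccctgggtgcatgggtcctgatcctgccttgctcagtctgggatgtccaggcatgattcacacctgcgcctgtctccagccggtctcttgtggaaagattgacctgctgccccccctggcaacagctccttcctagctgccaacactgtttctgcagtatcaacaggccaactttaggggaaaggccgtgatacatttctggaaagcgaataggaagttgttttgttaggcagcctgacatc
The match of Slpi begins 17 bases before the start site. This RefSeq start site lies inside the span given above for Slpi, away from its upper end at chr2:164389095, where a minus-strand gene begins. In Timd4 the match is on the other strand, 6 bases past the start site. Cd5l held 3 matches, 127 and 31 bases before and 3 bases past the start site, where CTATCA is TGATAG read on the other strand. Matches stood in 3 of the 6 windows, while 29.8% of all 32851 promoter windows hold at least 1 match and 7.77% hold 2 or more. The PU.1 word GAGGAA, of a factor common to macrophages, was in 1 of the 6 windows (Cd5l), against 28.3% of all windows. A match is a description of the letters, and no binding was measured here.

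Each member was also set against Adgre1, the gene of F4/80 used in the sort, to describe levels per macrophage transcript, a ratio chosen after the values were seen. Adgre1 itself had 114, 45.8 and 25.4 TPM in WT and 91.1, 40.1 and 27.9 TPM in C5aR-/- TAMs, with a log2 difference of -0.13 (standard error 0.62). It was among the 3 of 12 macrophage markers with a negative difference, while the other 9 were positive and the median was 0.47. Per TPM of Adgre1, Icam2 was at 0.459, 0.457 and 0.510 in WT and at 0.0845, 0.128 and 0.0365 in C5aR-/- TAMs. The WT libraries thus lay close to each other, where their TPM had differed widely. Slpi was at 1.52, 1.92 and 1.93 in WT against 0.144, 0.929 and 0.218 in C5aR-/-. Prg4 was at 6.79, 3.98 and 2.70 against 0.201, 1.21 and 0.139. On this scale 6 of 9 members had all C5aR-/- libraries below all WT libraries, namely Prg4, Icam2, Slpi, Alox15, Timd4 and Cd5l, as did 1.27% of all tested genes. The spread of Adgre1 within groups enters every ratio. Genes that do not follow Adgre1 therefore separate less easily than in TPM, where 12.5% did, and the share is no equal background for macrophage genes.

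Cd5l and Alox15 joined the separated members on this scale. Cd5l was at 1.32, 1.74 and 1.54 in WT and at 1.09, 0.773 and 0.381 in C5aR-/- TAMs, and Alox15 at 3.59, 2.02 and 1.32 against 0.247, 1.06 and 0.210. Timd4 was at 0.248, 0.296 and 0.519 against 0.121, 0.179 and 0.0634. Selp, Garnl3 and Gata6 overlapped. Gata6 per Adgre1 was 1.02, 1.99 and 4.24 in WT and 0.978, 2.60 and 3.11 in C5aR-/- TAMs, so that it was highest where Adgre1 was lowest, in library 3 of both groups.

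**Figure D2:**
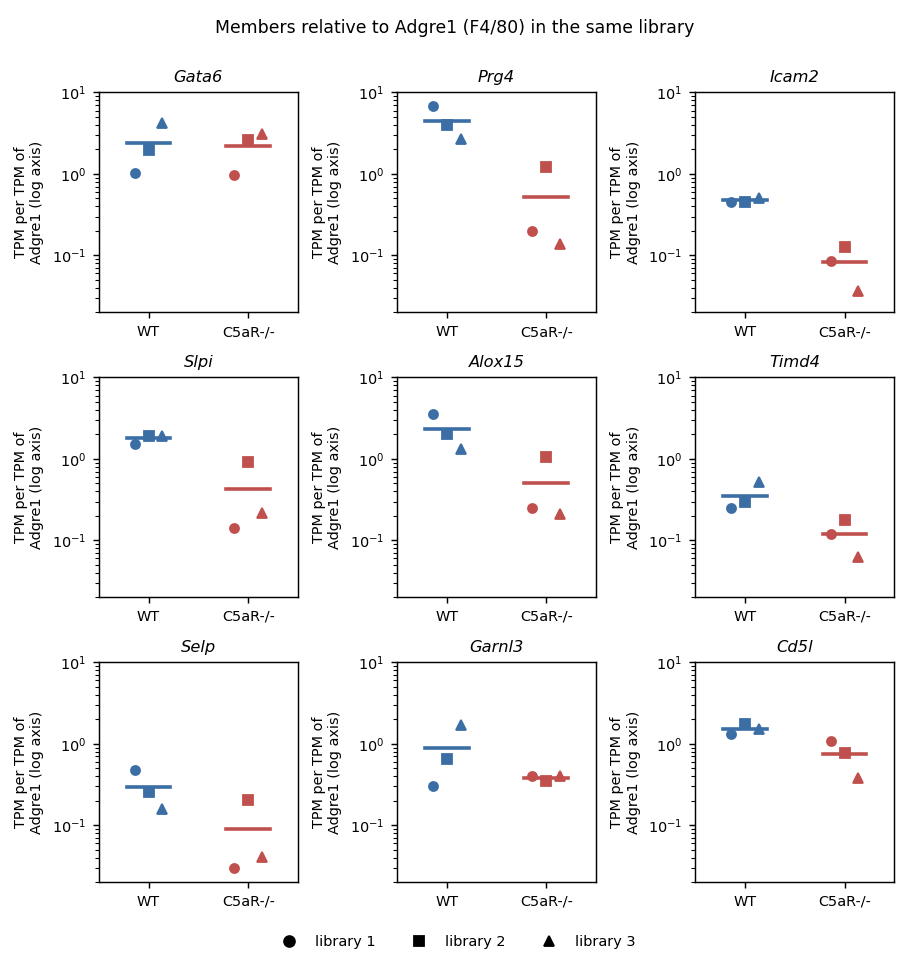
TPM of each member divided by the TPM of Adgre1 in the same library, on a log axis common to all panels, in WT and C5aR-/- TAMs, with a bar at the group mean. Icam2 in WT TAMs stays between 0.457 and 0.510 while C5aR-/- TAMs reach at most 0.128, and Gata6 varies from 0.978 to 4.24 without a gap between the groups.

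With 12 macrophage markers in place of Adgre1 alone (each library's log2 values less the mean of the markers), 8 of 9 members had all C5aR-/- libraries below all WT libraries, as did 3.03% of all tested genes, and Gata6 overlapped. The same limit holds for this share, since the spread of the markers' mean within groups enters every gene. This scaling moved the median difference of all genes from -0.05 to -0.39. The members' log2 differences were -4.02 for Prg4, -2.89 for Slpi, -2.86 for Alox15, -2.75 for Icam2, -2.21 for Selp, -1.83 for Timd4, -1.57 for Cd5l, -1.28 for Garnl3 and -0.50 for Gata6, of which the shift of all genes is a part.

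Other cells can transcribe some members, and their markers were measured in the same libraries. For the endothelium and platelets, which make P-selectin, Cldn5 was listed at 0 in all 6 libraries, and Cdh5, Emcn and Egfl7 were under 1 TPM in every library. Other endothelial markers were present, with Pecam1 at 6.84 to 12.5, Eng at 4.75 to 9.32, Tek at 0.16 to 14.3, Kdr at 0.54 to 5.49 and Vwf at 0.49 to 2.43 TPM. The sum of 10 endothelial markers was 118 to 145 TPM in WT and 79.9 to 135 TPM in C5aR-/- TAMs, most of it Esam, while 6 platelet markers summed to 7.20 to 12.4 and 9.28 to 13.1 TPM, led by Itga2b, with Gp9 and Gp6 under 1. For eosinophils, which also express Alox15, the sum of 6 markers was 4.40 to 13.3 TPM in WT and 2.01 to 7.03 TPM in C5aR-/- TAMs, led by Prg2, with Epx and Ear6 under 1 in every library. Prg2 was lower in all C5aR-/- libraries than in all WT libraries (log2 difference -1.10, limma, unadjusted p = 0.0123), and Epx was listed at 0 in every C5aR-/- library and at 0.37 to 0.77 TPM in WT. Siglecf, also tested, overlapped between the groups (log2 difference -0.13, limma, unadjusted p = 0.788) and was highest in C5aR-/- library 2, at 4.28 TPM.

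Neutrophil and mesothelial markers also differed between the groups. Neutrophils hold Slpi, and 8 neutrophil markers summed to 632 to 2458 TPM in WT and 27.9 to 412 TPM in C5aR-/- TAMs without overlap, led by S100a9. Of the 7 neutrophil markers tested, 5 passed the unadjusted threshold as lower (S100a8, S100a9, Ngp, Mmp8 and Cxcr2), where 2.84% of all tested genes did. Ly6g, whose protein the sort excluded, was at most 4.94 TPM. Among the WT libraries the neutrophil sum was highest in library 2. The sum of 7 mesothelial markers was 1079 to 1465 TPM in WT and 770.1 to 1071 TPM in C5aR-/- TAMs, led by Wt1 (log2 difference -0.10). The gap between the groups was narrow, and among the WT libraries this sum was highest in library 3 and lowest in library 1. Of the mesothelial markers, 3 of 7 (Upk3b, Upk1b and Lrrn4) passed the unadjusted threshold as lower, against 2.84% of all tested genes, while Msln was higher in all C5aR-/- libraries (log2 difference 0.88). Among keratins and epithelial markers, 6 genes summed to 1843 to 2039 TPM in WT and 1669 to 2211 TPM in C5aR-/-, led by Krt19, and 5 fibroblast markers to 391 to 579 and 428 to 555 TPM, led by Dcn. Epithelial and mesothelial cells can also transcribe Gata6. ID8 is itself an epithelial line, and the keratin, epithelial and mesothelial markers were not split between tumor and host cells. The part of any of these cells in the members' levels, that of Gata6 among them, was not tested.

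**Figure D3:**
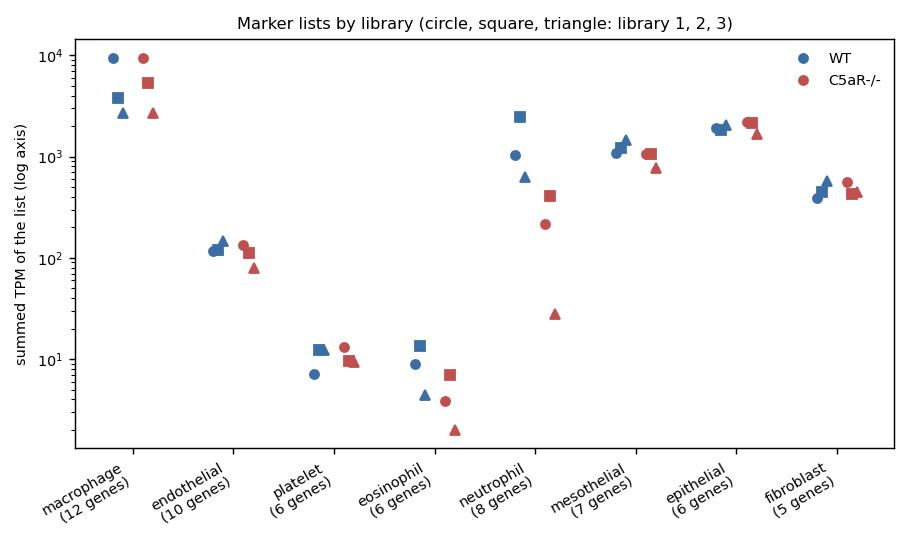
Summed TPM of 8 lists of cell type markers in each library, on a log axis, with WT and C5aR-/- TAMs side by side. The neutrophil sums of C5aR-/- TAMs (27.9 to 412) lie below those of WT TAMs (632 to 2458), while the macrophage sums cover nearly the same range in both groups. Lyz2 is the most abundant of the macrophage markers, and 9 of the 12 had a positive log2 difference.

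Other genes of resident peritoneal macrophages were counted from a list of 18 companions, all of which were tested. Of these, 4 passed the unadjusted threshold as lower (F10, Serpinb2, Saa3 and Lrg1) and 0 as higher, against 2.84% and 2.13% of all tested genes. After adjustment 0 passed, and 14 of 18 differences were negative, as were 8206 of 14776 over all tested genes. The median of the companions was -0.57. Serpinb2, an intracellular protease inhibitor also known as PAI-2, had 108, 28.8 and 12.3 TPM in WT and 3.41, 8.89 and 0.57 TPM in C5aR-/- TAMs (log2 difference -3.10, standard error 0.92, limma, adjusted p = 0.224). Saa3, an acute phase apolipoprotein of inflamed macrophages, had 1499, 749 and 905 TPM against 211, 318 and 44.5 TPM (-2.79, standard error 0.71, adjusted p = 0.176). Both genes had all C5aR-/- libraries below all WT libraries, as in 12.5% of all genes.

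Lrg1, a secreted leucine-rich glycoprotein, had 80.5, 35.4 and 12.3 TPM in WT and 3.91, 9.11 and 1.03 TPM in C5aR-/- TAMs, again without overlap (log2 difference -2.87, standard error 0.79, limma, adjusted p = 0.205). F10, which encodes coagulation factor X, had 62.6, 22.5 and 18.2 TPM against 7.36, 21.01 and 2.68 TPM, and overlapped (-1.80, limma, unadjusted p = 0.0428). Its unadjusted call was lost without WT library 1 (-1.27), WT library 2 (-1.99), C5aR-/- library 1 (-1.77) or C5aR-/- library 3 (-1.17), and also with no filter (-1.80) and with median-of-ratios scaling (-1.76). F5, coagulation factor V, starts 1.812 kb past the end of Selp on chromosome 1 and is named after its values were seen. It had 31.5, 9.51 and 2.46 TPM in WT and 2.42, 3.62 and 0.17 TPM in C5aR-/- TAMs (-2.00, limma, unadjusted p = 0.058).

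The other companions with a mean of at least 20 TPM did not pass both the p and the fold. The differences were -1.10 for the B cell chemokine Cxcl13, -0.64 for the integrin Itga6, -0.62 for Tgfb2, -0.52 for fibronectin (Fn1), -0.18 for the scavenger receptor Marco and -0.08 for both ficolin A (Fcna) and thrombospondin-1 (Thbs1). The complement receptor Vsig4, which also marks resident macrophages, had a positive difference of 0.70, with 45.1, 9.91 and 9.07 TPM in WT and 48.4, 26.4 and 15.0 TPM in C5aR-/- TAMs. Ltbp1, which binds latent TGF-beta, was higher in all C5aR-/- libraries than in all WT libraries (0.35, adjusted p = 0.373 from limma).

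**Figure D4:**
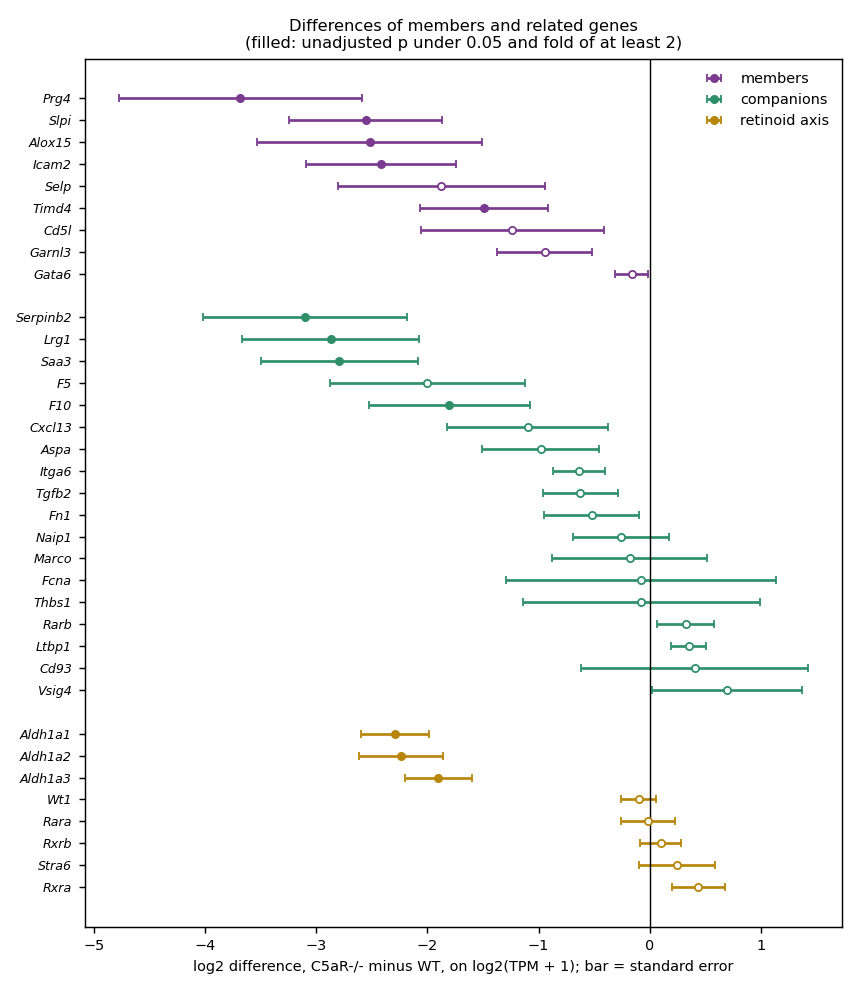
Log2 difference between C5aR-/- and WT TAMs on log2(TPM + 1) with its standard error, for the 9 members, 18 companion genes and 8 retinoid genes, filled where the unadjusted p was under 0.05 with a fold of at least 2. The 9 members all lie left of 0 and range from -3.68 for Prg4 to -0.16 for Gata6, and the 3 filled retinoid genes are Aldh1a1, Aldh1a2 and Aldh1a3.

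The retinoid genes that stand upstream of Gata6 in the peritoneum were examined next, as 9 genes that were all tested. The retinaldehyde dehydrogenases, which make retinoic acid, were lower in C5aR-/- TAMs at the unadjusted threshold, while the receptors and the other retinoid genes were not called. Aldh1a1 had 818, 883 and 468 TPM in WT and 133, 194 and 110 TPM in C5aR-/- TAMs (log2 difference -2.29, standard error 0.31, limma, adjusted p = 0.0666). Aldh1a2 had 28.9, 40.9 and 41.4 TPM against 7.56, 11.9 and 3.60 TPM (-2.24, standard error 0.38, adjusted p = 0.0932). Aldh1a3 was low throughout, with 3.99, 7.49 and 3.32 TPM against 0.53, 0.51 and 0.52 TPM (-1.90, standard error 0.30, adjusted p = 0.0892). All C5aR-/- libraries lay below all WT libraries for each of the 3, as in 12.5% of all genes. These enzymes are made by mesothelial and stromal cells as well as by macrophages. The mesothelial sums given above were 1079 to 1465 TPM in WT and 770.1 to 1071 TPM in C5aR-/- TAMs. Among the WT libraries the mesothelial sum was highest in library 3, where Aldh1a1 and Aldh1a3 were lowest and Aldh1a2 was highest. The part of these cells, or of ID8 tumor cells, in the Aldh1a levels was not tested.

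Of the other retinoid genes, Wt1, a mesothelial factor that drives retinoic acid synthesis, had 338, 361 and 451 TPM in WT and 395, 342 and 331 TPM in C5aR-/- TAMs (-0.10). The differences were -0.02 for the receptor Rara, 0.10 for Rxrb, 0.44 for Rxra and 0.25 for the retinol transporter Stra6. Over the 9 genes, 3 passed the unadjusted threshold as lower and 0 as higher, against 2.84% and 2.13% of all tested genes. After adjustment 0 passed, and the median was -0.02. Without C5aR-/- library 1, Aldh1a1 passed the adjusted threshold (-2.25, limma, adjusted p = 0.0368, where the alternatives reached up to 0.339).

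**Figure D5:**
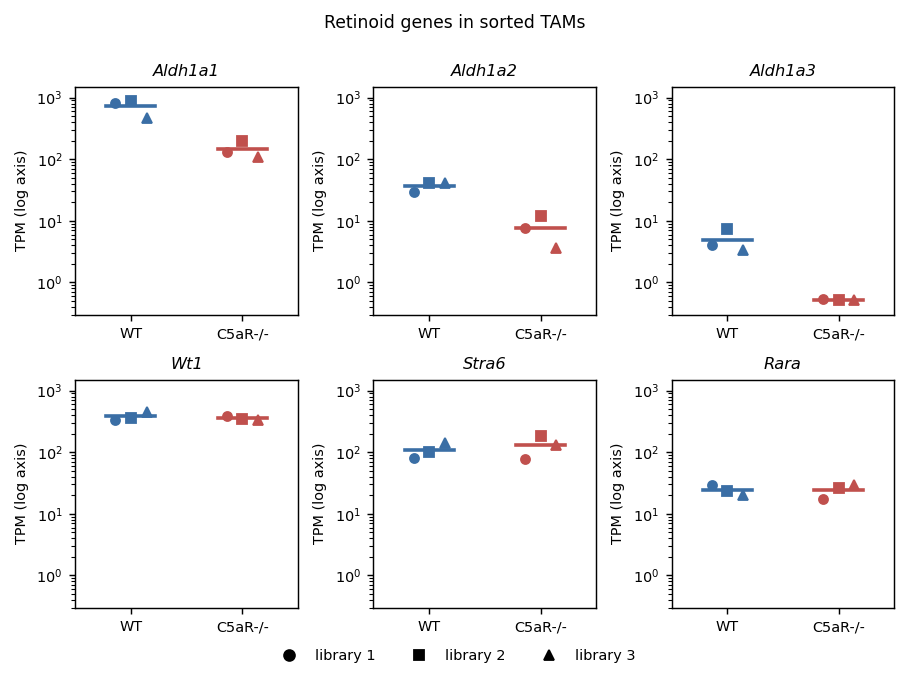
TPM of 6 of the retinoid genes on a log axis common to all panels, in WT and C5aR-/- TAMs, with a bar at the group mean. The WT and C5aR-/- libraries of Aldh1a1, Aldh1a2 and Aldh1a3 do not overlap, and those of Wt1, Stra6 and Rara do.

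Genes listed for small peritoneal and monocyte-derived macrophages were split in direction, with 7 negative and 9 positive differences over 16 genes and a median of 0.07. Over all tested genes 8206 differences were negative and 6570 positive. At the unadjusted threshold 1 passed as lower and 1 as higher, against 2.84% and 2.13% of all tested genes, and 0 passed after adjustment. Mgl2, a C-type lectin of alternatively activated macrophages, was higher, with 7.61, 3.84 and 3.37 TPM in WT and 28.8, 22.4 and 6.98 TPM in C5aR-/- TAMs (1.65, limma, unadjusted p = 0.0185). Ly6c2, a marker of classical monocytes, was lower, with 26.4, 33.3 and 41.4 TPM against 27.3, 9.41 and 6.28 TPM (-1.41, limma, unadjusted p = 0.0253). Both calls were lost without WT library 2 (1.53 and -1.40), WT library 3 (1.46 and -1.25) or C5aR-/- library 2 (1.44 and -1.25), that of Mgl2 also without C5aR-/- library 1 (1.27) and that of Ly6c2 without C5aR-/- library 3 (-0.99). Mgl2 also did not pass when scaled to the macrophage markers (1.31, limma, unadjusted p = 0.122).

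The MHC class II genes that are higher in small than in large peritoneal macrophages had small differences that did not pass, with -0.10 for Cd74, 0.03 for H2-Aa, 0.42 for H2-Ab1 and 0.11 for H2-Eb1. For the remaining genes with a mean of at least 20 TPM, the differences were 1.46 for the mannose receptor Mrc1, 0.57 for Folr2, -1.002 for Plac8, -1.15 for Lyve1 and -1.74 for Retnla, none of which passed. Their libraries differed by as much within as between groups, with Lyve1 at 126, 29.3 and 2.55 TPM in WT and 42.0, 11.7 and 1.32 TPM in C5aR-/- TAMs.

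The genes whose levels were most like the mean profile of the members, among 11183 genes with a mean of at least 5 TPM, were Mcemp1 (Pearson's r = 0.995 over 6 libraries), C4b (0.988), Lrrk2 (0.986), Gbe1 (0.986) and Serpinb2 (0.984), and 46 genes had an r above 0.95. Mcemp1, a membrane protein of mast and myeloid cells, had 39.3, 17.8 and 8.54 TPM in WT and 6.74, 7.26 and 1.91 TPM in C5aR-/- TAMs. C4b, a complement component, had 373, 148 and 109 TPM against 104, 82.0 and 29.1 TPM. Like most members, both were highest in WT library 1 and lowest in C5aR-/- library 3.

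Gata6 had other neighbors. The genes most like it were Grb2 (r = 0.947), Ufsp2 (0.946), Pcsk7 (0.940), Tubgcp3 (0.932) and Dcaf5 (0.924), and 0 genes had an r above 0.95. Grb2, an adaptor of growth factor receptors, had 105, 69.5 and 99.8 TPM in WT and 78.3, 100.01 and 67.3 TPM in C5aR-/- TAMs. The points of these correlations are the same 6 libraries throughout, and many genes were searched.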

How the data were processed

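RNA-seq of TAMs sorted from ID8 tumors gave 6 libraries, 3 WT and 3 C5aR-/-, grouped by the sample labels. The authors used fastp for trimming, HISAT2 for alignment and StringTie for assembly, and they deposited TPM values per gene, which sum to 1000000 in each library. The methods name FPKM, and the submitters' processing notes also name RSEM, DESeq2 and mm10. Versions are not given in the sources used here. Between 14393 and 15015 genes had at least 1 TPM in a library, and the 10 most abundant took 12.0% to 15.4% of it. Depth is unknown, so errors come from the spread between libraries alone. The 2 columns of group means were not used.

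TPM was transformed as log2(TPM + 1), which understates the differences of low genes, and 14776 genes with at least 1 TPM in at least 3 libraries were tested with limma 3.58.1 in R 4.3.3 (eBayes with trend, Benjamini-Hochberg over all tested genes). Calls needed a fold of at least 2 at an adjusted or an unadjusted p under 0.05, the thresholds of the study's methods, whose count-based tests were not run on TPM. Symbols and positions came from GENCODE M21 (GRCm38), which named 52073 genes. Single genes also had a two-sided exact permutation test. The test was tested on simulated data. Python 3.11.15, pandas 2.3.3, numpy 2.4.6 and scipy 1.17.1 handled the values.

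Named were all members, listed companion, retinoid and small peritoneal macrophage genes with a mean of at least 20 TPM or an unadjusted call, the most abundant gene of each marker list, the 5 genes most like the members and Gata6, and C5ar1. The values of 1 listed gene are not reported here. Members and lists were chosen with earlier results of these data known. Alternatives were a pseudocount of 0.1, no filter, at least 5 TPM, quantile and median-of-ratios scaling, scaling to 12 macrophage markers, a replicate block and leaving out each library.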

Additional observations from a re-analysis of the deposited data

How the results depend on the processing

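Every member kept a negative difference under all 13 alternatives, and Prg4, Icam2 and Slpi passed the unadjusted threshold in each. The alternatives draw on the same 6 libraries, and scaling to the macrophage markers moved the median of all genes to -0.39. Over these alternatives Prg4 ranged from -4.50 to -2.75, Icam2 from -2.85 to -1.80 and Slpi from -3.20 to -1.98, with adjusted p (limma) from 0.000610 to 0.616, 0.0885 to 0.596 and 0.102 to 0.594. Of all comparisons of a result with an alternative, 285 kept their call or moved less than the limit set for them, 25 moved further and 2 newly passed after adjustment. Scaling to the macrophage markers gave 27 genes called after adjustment, among them 1 member (Prg4, adjusted p = 0.000610) and 2 companions, 45 genes higher, 2 small peritoneal macrophage genes lower and a median of -0.35 for the retinoid genes. Its p-values rest on an error that limma pooled almost wholly over genes, although the spread of the shared index enters every gene, so they are probably too small. With at least 5 TPM, 274 genes were lower and 201 higher, as fewer genes were tested. The split of 419 lower and 314 higher became 371 and 386 with quantile and 383 and 354 with median-of-ratios scaling, and the cause was not tested. Alox15 and F10 lost their unadjusted calls with no filter (-2.52 and -1.80) and with median-of-ratios scaling (-2.48 and -1.76).

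Leaving out each library in turn gave 0 to 356 genes called after adjustment (356 without C5aR-/- library 1, 1 without C5aR-/- library 2, 3 without C5aR-/- library 3), 323 to 647 lower and 244 to 619 higher at the unadjusted threshold. Members called were 0 to 1 after adjustment (Garnl3) and 3 to 6 unadjusted, companions 0 and 3 to 6, retinoid genes 0 to 1 and 3, small peritoneal macrophage genes 0 to 1 and 0 to 2. Medians ran from -2.68 to -1.15 for members, -0.94 to -0.28 for companions, -0.18 to 0.021 for retinoid genes and -0.17 to 0.18 for small peritoneal macrophage genes.

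The labels do not say whether replicate numbers pair the libraries, and 3 libraries per group are too few to settle it. The deviations of same-numbered libraries correlated at 0.186, -0.011 and 0.272. WT libraries 1 and 3 correlated best with the C5aR-/- library of their own number, and WT library 2 with C5aR-/- library 1 (0.093). With the replicate number as a block, 467 genes were lower, 344 higher and 0 called after adjustment, 7 members passed unadjusted (Selp and Cd5l in addition), and 4 small peritoneal macrophage genes were lower.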
